A study of Mus musculus with 34 samples.

Results

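Heart and adipose tissue of mice on the control diet were compared gene by gene: 5 heart libraries against 3 adipose tissue libraries, chosen by tissue and diet from the labels alone. These are 8 of the 27 libraries of the series that have a column of counts. All mice were C57BL/6J, were fed a control diet with 10% of calories from fat, and were 20 or 21 months old (heart replicates 2 and 3 and adipose replicate 1 were 21 months old, and the others 20 months). Other mice of the series had a high-fat, high-calorie diet (HFCD), with 60% of calories from fat, alone or with monthly cycles of a fasting mimicking diet. The tissues of every group, controls included, were labelled with 11 cycles and 4 days, the time of harvest after the last cycle. Neither the sex of the mice nor the fat depot is given in the labels used here. Libraries were made from total RNA after removal of ribosomal RNA. Mice on HFCD alone, 20 to 22 months old, enter 1 comparison, at the end. Values per library follow replicate numbers, 2, 3, 4, 5 and 6 for heart and 1, 3 and 5 for adipose tissue.

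The adult heart is a working muscle whose cardiomyocytes contract without rest. Their thin and thick filaments slide past each other when calcium leaves the sarcoplasmic reticulum, and the energy comes mostly from mitochondrial oxidation of fatty acids, ketone bodies and lactate, carried as phosphocreatine to the filaments. White adipose tissue stores energy as triglyceride, makes fatty acids from glucose, releases them on adrenergic signals and secretes hormones such as leptin and adiponectin. Both tissues take up circulating fatty acids and both hold endothelial cells, fibroblasts, mural cells and immune cells. In bulk tissue, fewer cells of a type and less RNA per cell cannot be told apart.

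The 2 deposited tables held 13238 genes for heart and 15145 for adipose tissue, and 12606 genes stood in both. In all, 2539 genes stood only in the adipose table and 632 only in the heart table. Those of the adipose table alone include ribosomal protein genes such as Rps7 and Rps27, so absence from 1 table alone does not show a tissue difference. Library totals ran from 16848195 to 33180337 counts in heart and from 15604982 to 28495331 counts in adipose tissue. Of 12603 genes tested, 3826 (30.4%) were higher in heart and 3863 (30.7%) were higher in adipose tissue at an adjusted p below 0.05 (edgeR quasi-likelihood test, Benjamini-Hochberg adjustment), so that 49.8% of called genes were higher in heart. With library totals alone as the scale, which moved the median of all genes by -0.22, that share was 38.2%. The median log2 fold change over all tested genes was -0.0046, with quartiles at -0.71 and 0.71. Past 4-fold, 984 called genes (7.81%) were higher in heart and 802 (6.36%) were higher in adipose tissue. Past 32-fold these numbers were 181 and 79. In 3601 genes (28.6%) every heart library lay above every adipose library, and in 3640 (28.9%) every heart library lay below. Levels are given as CPM, that is, counts relative to the library total after correction by trimmed mean of M values (TMM), and fold changes as log2 of heart over adipose tissue, so that a positive value is a higher level in heart. With 61% of genes called, a call alone says little about a gene, and sizes are read against the quartiles above. The heart libraries fell into 2 sets by how the submitters had adjusted their deposited log2 values, replicates 2, 3 and 5 and replicates 4 and 6. With the first set alone 3233 genes were higher in heart and 3264 in adipose tissue, and with the second set 3430 and 3281. Tissue cannot be told apart from any step of handling or sequencing that differed between the tissues.

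**Figure D1:**
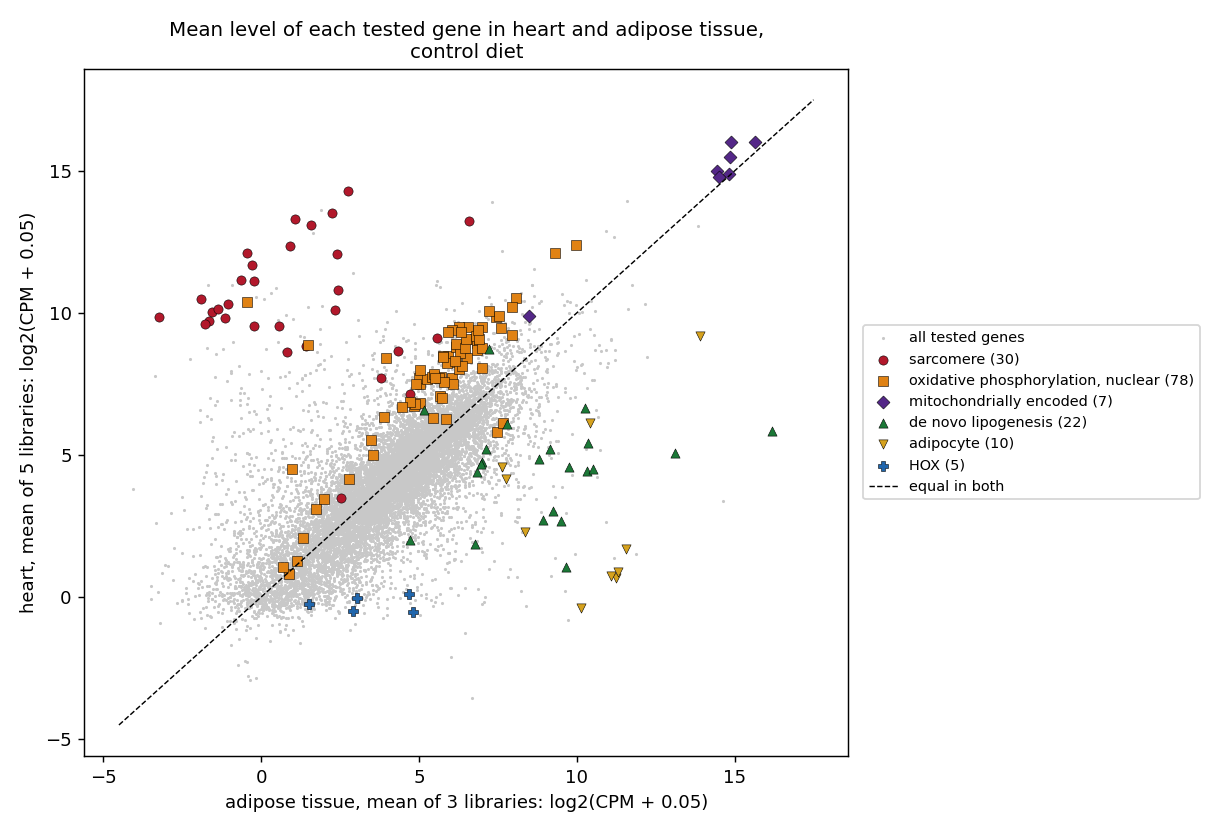
Mean level of each tested gene, log2(CPM + 0.05), in heart (vertical axis, 5 libraries) against adipose tissue (horizontal axis, 3 libraries), with 6 gene lists in colour and the dashed line marking equal levels. Sarcomere genes lie far above the line, lipogenic, adipocyte and HOX genes below it, nuclear oxidative phosphorylation genes mostly above it, and the mitochondrially encoded genes close to it.

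The tissue labels were checked against markers. All 9 tested cardiomyocyte markers were higher in heart (median log2 fold change 11.62), and their summed level was 89048, 61698, 76489, 66290.5 and 69708 CPM in heart, against 64.9, 4.27 and 3.13 CPM in adipose tissue. All 10 tested adipocyte markers were higher in adipose tissue (median -7.98), with summed levels of 1259, 492, 659.5, 536 and 567 CPM in heart, against 37525, 27459 and 21345 CPM in adipose tissue. Most of the sum in heart came from Fabp4, with 1094, 395, 547, 413 and 439 CPM. Both labels therefore held. Traces of the other tissue's genes were uneven between libraries. The cardiomyocyte sum in adipose replicate 1 was more than 10 times that in adipose replicates 3 and 5, and the cardiac myosin gene Myh6 alone had 19.4, 0.482 and 0.254 CPM in the adipose libraries. In heart, the adiponectin gene Adipoq had 0.623, 0.596, 0.792, 4.04 and 1.66 CPM, highest in replicates 5 and 6. Without adipose replicate 1 the cardiomyocyte median was 13.95, and without heart replicate 5 the adipocyte median was -8.25. The part of these traces in the results was not tested. Other differences between libraries touch the results below. Heart replicate 2 stood apart from the other heart libraries in many abundant genes, heart replicates 5 and 6 were highest in the atrial light chain genes Myl4 and Myl7, and adipose replicate 1 had low levels of macrophage genes and high levels of brown fat genes.

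**Figure D2:**
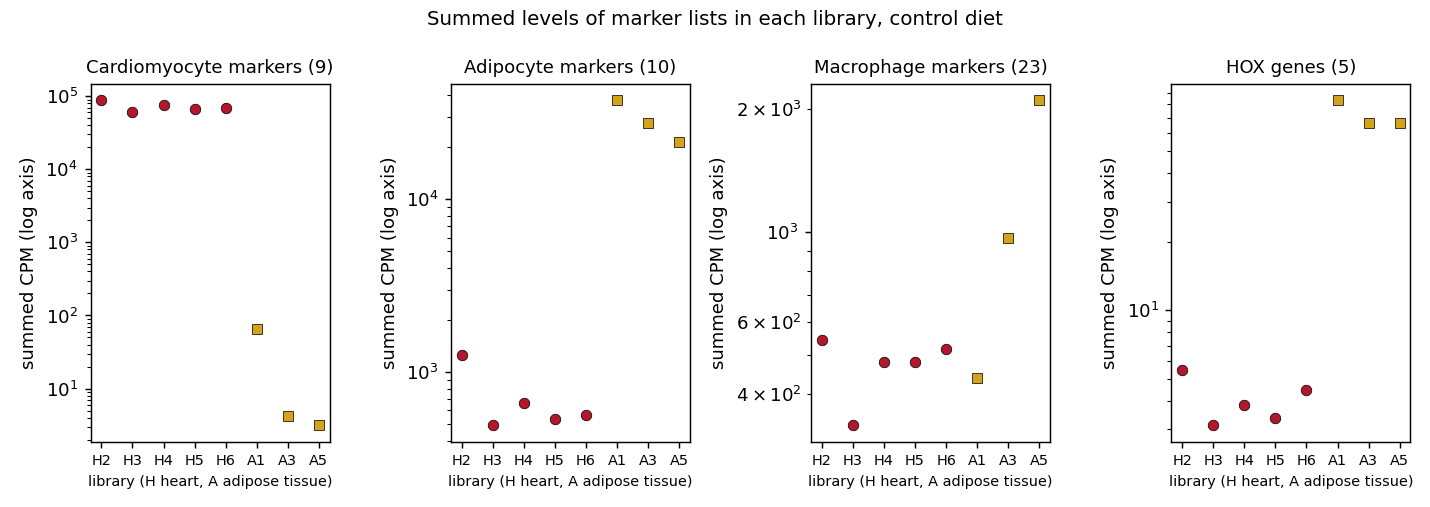
Summed CPM, on log axes, of tested members of 4 gene lists in each heart library (circles) and each adipose tissue library (squares). Cardiomyocyte markers summed to at least 61698 CPM in every heart library, and the 64.9 CPM of adipose replicate 1 stands above the other adipose libraries; macrophage markers were lowest among adipose libraries in replicate 1.

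Promoters of genes at both extremes are shown to set the sequence beside the values that follow. Each is the 250 bases before the first start that RefSeq lists for the gene (GRCm38.p6), written from 5′ to 3′ on the gene's strand. For Myh6 this window lies within the GENCODE gene span given below, which starts further upstream. In the muscle genes the capitals mark the MCAT box (GGAATG, bound by TEAD factors) and the CArG box (bound by serum response factor), and in the adipose genes the CCAAT box (CCAAT), on either strand. The Actc1 window also holds a CCAAT box, which is not marked.
Myh6, chr14:54966608-54966857, minus strand, 1 MCAT box at position -206 from the start: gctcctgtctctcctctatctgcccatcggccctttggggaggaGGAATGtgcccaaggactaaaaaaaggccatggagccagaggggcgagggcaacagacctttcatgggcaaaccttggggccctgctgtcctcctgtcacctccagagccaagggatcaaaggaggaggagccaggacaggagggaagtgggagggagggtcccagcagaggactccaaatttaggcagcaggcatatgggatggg
Actc1, chr2:114052876-114053125, minus strand, 1 CArG box at position -47: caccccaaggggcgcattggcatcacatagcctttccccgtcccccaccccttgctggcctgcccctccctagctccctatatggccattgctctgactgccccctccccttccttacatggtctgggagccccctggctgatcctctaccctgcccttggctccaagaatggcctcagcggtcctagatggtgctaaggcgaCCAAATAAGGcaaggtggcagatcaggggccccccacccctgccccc
Fasn, chr11:120824548-120824797, minus strand, CCAAT boxes at -90, -62 and -59, the last pair on opposite strands and sharing letters: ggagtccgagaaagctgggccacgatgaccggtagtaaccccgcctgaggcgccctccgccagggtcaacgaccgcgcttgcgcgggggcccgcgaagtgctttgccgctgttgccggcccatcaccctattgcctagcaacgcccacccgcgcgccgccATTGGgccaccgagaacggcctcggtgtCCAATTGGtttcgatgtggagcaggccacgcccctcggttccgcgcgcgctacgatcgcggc
Adipoq, chr16:23146286-23146535, plus strand, CCAAT boxes at -34, -27 and -7: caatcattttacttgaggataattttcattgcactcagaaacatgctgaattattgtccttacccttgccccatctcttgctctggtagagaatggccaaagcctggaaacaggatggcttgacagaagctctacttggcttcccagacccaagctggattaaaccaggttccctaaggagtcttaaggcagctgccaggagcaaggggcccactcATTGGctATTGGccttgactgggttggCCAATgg

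In all, 6 motifs were searched on both strands of these windows. Of 30 tested sarcomere genes 26 had a promoter in the table, and 8 of them (30.8%) held the MCAT box, against 12.6% of all 27025 promoters. The CArG box stood in 5 of the 26 (19.2%), in Myl3, Actc1, Acta1, Ldb3 and Myom1, against 1.4% of all promoters. The CCAAT box stood in 8 of the 26 (30.8%), Actc1 among them, against 34.5% of all promoters. Among 63 nuclear oxidative phosphorylation genes, 5 (7.94%) held AAGGTCA, the core site of estrogen-related receptors, against 4.05% of all promoters, and 27 (42.9%) held the CCAAT box, against 34.5%. Among 19 lipogenic genes, 9 (47.4%) held the CCAAT box, 1 held TCACNCCAC, a form of the sterol regulatory element (1.04% of all promoters), and 2 held the C/EBP site TTGCNNAA (9.55% of all promoters). Of 7 adipocyte markers 1, Plin1, held that C/EBP site and 1, Adipoq, held the CCAAT box (14.3%, against 34.5% of all promoters). These are matches of letters in short windows and not measured binding.

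Genes of the sarcomere, the contractile unit of striated muscle, were higher in heart in 29 of 30 tested members, with a median log2 fold change of 11.61 and all 29 past 4-fold. Myh6, the alpha myosin heavy chain of the adult mouse heart (chr14:54941921-54966927), had 19290, 17390, 21369, 19107 and 22982 CPM in heart, against 19.4, 0.482 and 0.254 CPM in adipose tissue (log2 fold change 11.61, SE 1.68, adjusted p = 0.000174). Every heart library was far above every adipose library, and the spread came from adipose replicate 1; without it the log2 fold change was 15.71. Cardiac actin, Actc1, had 13132, 9609, 13951, 11524 and 10134 CPM in heart, against 13.04, 0.739 and 0.198 CPM in adipose tissue, the same uneven pattern. Troponin T, Tnnt2, averaged 8769 ± 3098 CPM in heart and 2.94 ± 3.93 CPM in adipose tissue (SD, n = 5 and 3; log2 fold change 11.66). Titin, Ttn, the molecular spring of the sarcomere, averaged 4262 ± 960.3 CPM in heart and 5.21 ± 8.48 CPM in adipose tissue (9.77). The myosin light chains Myl2 and Myl3 and the myosin-binding protein gene Mybpc3 differed by 12.43, 12.88 and 12.43, and the Z-disc and scaffold genes Myoz2, Actn2 and Nrap by 12.46, 12.3 and 11.93.

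Among sarcomere genes the largest difference was in Csrp3, whose product is a Z-disc protein of muscle (chr7:48830398-48848033). It had 1227, 838, 975, 813 and 777 CPM in heart, against 0.1395, 0 and 0.0282 CPM in adipose tissue, where it rested on 3 counts in all (log2 fold change 14.4, SE 0.54, adjusted p = 2.33e-08). The ratio of summed levels was 24578, with a 95% counting interval (Clopper-Pearson) from 8410 to 119182. Mypn, another Z-disc gene, had 2 counts in adipose tissue and a ratio of 8740.05, with an interval from 2419 to 72173; such intervals cover counting error only. Tcap, titin's cap, had 2626, 988, 1205, 1155 and 1159.8 CPM in heart, against 0.558, 0.0642 and 0.0282 CPM in adipose tissue. Tropomyosin, Tpm1, was 1 of the members that adipose tissue also expressed, with 9566 ± 3101 CPM in heart and 95.9 ± 8.095 CPM in adipose tissue (6.64). Skeletal actin, Acta1, had 251, 63.5, 66.7, 265 and 55.96 CPM in heart, against 10.4, 29.9 and 37.8 CPM in adipose tissue; heart replicates 2 and 5 were about 4 times the other heart libraries (2.42, adjusted p = 0.00987; it did not pass with heart replicates 4 and 6 alone). The member that did not pass, Myl4, the atrial essential light chain, had 3.31, 1.91, 2.44, 29.8 and 18.7 CPM in heart, against 3.77, 8.67 and 4.68 CPM in adipose tissue (adjusted p = 0.359), and the groups overlapped. The 2 heart libraries that were highest in Myl4 were those highest in Myl7, the atrial regulatory light chain, which stood only in the heart table at 0.335, 0.238, 0.488, 28.9 and 12.7 CPM. The beta myosin gene Myh7 also stood only there, at 26.7, 102, 69.1, 678 and 58.8 CPM, highest in replicate 5. Nppa, the atrial peptide gene, also stood only there and did not follow this order, with 8.96, 78.1, 45.5, 103 and 17.1 CPM, highest in replicate 5 and second lowest in replicate 6. The part of these 2 libraries in the heart values was not tested. The sarcomere median was 11.61 without heart replicate 5, and over all fits leaving out 1 library it ran from 10.94 (without adipose replicate 3) to 12.64 (without adipose replicate 1).

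Calcium handling genes were higher in heart in 14 of 15 tested members (median 6.46). Ryr2, the release channel of the sarcoplasmic reticulum, had 886, 2195, 1871, 1732 and 2783 CPM in heart, against 3.07, 0.514 and 0.452 CPM in adipose tissue (10.66, SE 0.87, adjusted p = 2.92e-06). Pln, phospholamban, the regulator of the calcium pump, averaged 7262 ± 755 CPM in heart and 3.06 ± 4.48 CPM in adipose tissue (11.34), and the calcium buffers Casq2 and Hrc differed by 9.32 and 11.18. The pump itself, Atp2a2, had 8308, 17795, 17475, 14320 and 19369 CPM in heart, against 150, 163 and 162 CPM in adipose tissue (6.61); it was expressed in both tissues, at nearly 100 times the level in heart. Sri, sorcin, a calcium-binding protein, was the exception, with 46.5 ± 9.55 CPM in heart and 87.2 ± 10.2 CPM in adipose tissue (-0.91, adjusted p = 0.00103).

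All 14 tested cardiac ion channel genes were higher in heart (median 3.89). Kcnj2, an inward rectifier that sets the resting potential, averaged 63.7 ± 19.8 CPM in heart and 1.97 ± 0.152 CPM in adipose tissue (5.0). Of 13 genes of the intercalated disc, the junction between cardiomyocytes, 11 were higher in heart (median 5.63). Dsp, desmoplakin, had 756, 1784, 1586, 1526 and 1823 CPM in heart, against 1.95, 0.161 and 0.423 CPM in adipose tissue (11.05), while the connexin Gja1 was well expressed in both tissues, with 337 ± 75.5 CPM in heart and 91.4 ± 13.2 CPM in adipose tissue (1.88). The connexin Gja5 did not pass (9.02 ± 1.104 CPM in heart and 9.23 ± 1.31 CPM in adipose tissue), and Vcl, vinculin, was the 1 disc gene higher in adipose tissue (-0.52, adjusted p = 0.0292), a call lost without heart replicate 3 or 5 or adipose replicate 3 or 5 (from -0.68 to -0.38).

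Cardiac transcription factors were higher in heart in 14 of 15 tested members (median 4.7). Gata4, a zinc finger factor of heart development, had 110.1, 139, 89.9, 109 and 94.5 CPM in heart, against 0.907, 0.674 and 0.169 CPM in adipose tissue (7.68, SE 0.43, adjusted p = 2.22e-07). Hopx, a small homeodomain protein, had 229, 248, 283, 208 and 240.1 CPM in heart, against 1.81, 1.61 and 1.95 CPM in adipose tissue (7.07). In both genes heart and adipose libraries were far apart, and the Hopx values were tight in both groups. Hand2 and Mef2c differed by 5.94 and 1.94. Tead1, of the factor family that binds the MCAT box printed above, did not pass: it had 98.97, 279, 243, 268 and 283 CPM in heart, against 135, 171 and 174 CPM in adipose tissue (0.55, adjusted p = 0.141), and heart replicate 2 alone fell below the adipose libraries. Without heart replicate 2 all 15 tested members of the list, Tead1 included, passed as higher in heart. Nkx2-5 and Tbx20 stood only in the heart table, at 47.8 ± 16.8 and 138 ± 44.2 CPM (mean ± SD, n = 5), and natriuretic peptide genes Nppa and Nppb likewise, with 163, 127, 144, 125 and 22.7 CPM for Nppb.

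Position genes of the HOX clusters, which pattern the body axis behind the head and keep their pattern in adult stroma, ran the other way. Of 32 HOX genes measured, 27 stood only in the adipose table, 5 in both, and 0 in the heart table alone. Over all genes, 2539 stood only in the adipose table, 12606 in both and 632 in the heart table alone. All 5 shared genes were higher in adipose tissue (median -3.48). Hoxa7 had 1.15, 0.387, 0.427, 0.492 and 0.799 CPM in heart, against 34.5, 26.5 and 23.1 CPM in adipose tissue (-5.45, adjusted p = 2.38e-07), and Hoxd8 had 0.814, 0.893, 1.22, 1.26 and 0.971 CPM in heart, against 23.8, 25.5 and 27.6 CPM in adipose tissue (-4.63). Hoxa3, Hoxb4 and Hoxb2 differed by -3.48, -3.16 and -1.87. Among those in the adipose table alone, Hoxc8 averaged 71.8 ± 20.3 CPM, Hoxc6 24.002 ± 1.37 CPM and Hoxc10 23.8 ± 5.23 CPM (SD, n = 3); no level in heart can be set beside them. Of 9 T-box genes, which shape heart chambers among other organs, 4 stood in both tables, 3 in the heart table alone (Tbx1, Tbx15 and Tbx20) and 2 in the adipose table alone (Tbx6 and Tbx21). Tbx5 was higher in heart, with 30.6 ± 7.83 CPM in heart and 0.844 ± 0.805 CPM in adipose tissue (5.15, adjusted p = 2.34e-05). Tbx2 differed by 0.68 (adjusted p = 0.0433), a call lost when heart replicate 2 or 3 or any adipose library was left out (log2 fold changes from 0.5 to 0.77). Tbx3 and Tbx18 did not pass, at 0.18 and -0.47.

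Energy transfer genes of the creatine and adenylate shuttle were higher in heart in 8 of 9 tested members (median 5.16). Ckm, the muscle creatine kinase, had 3002, 1711, 2019.8, 1682 and 1611 CPM in heart, against 1.26, 0.0964 and 0.0847 CPM in adipose tissue (12.47), and the mitochondrial form Ckmt2 had 2673, 1744, 1982, 1595 and 2122 CPM in heart, against 0.698, 0.0642 and 0.0282 CPM in adipose tissue (13.43, SE 0.79, adjusted p = 3.21e-07). The brain form Ckb differed little (0.75). Gamt, the last enzyme of creatine synthesis, was higher in adipose tissue, with 2.59 ± 1.54 CPM in heart and 18.2 ± 5.56 CPM in adipose tissue (-2.82). Myoglobin, Mb, the oxygen store of muscle, had 19357, 9914, 12684, 11435 and 9995 CPM in heart, against 9.42, 0.899 and 0.818 CPM in adipose tissue (11.83).

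Fatty acid oxidation genes were higher in heart in 25 of 30 tested members, but at a median of 1.77 (2.21 without adipose replicate 1) the difference was far smaller than that of the contractile genes. Acadvl and Hadha, enzymes of the mitochondrial beta-oxidation spiral, averaged 1079 ± 222 and 1662 ± 261 CPM in heart and 121 ± 48.8 and 302 ± 113 CPM in adipose tissue (3.16 and 2.46). The 3 members higher in adipose tissue all act at fatty acid uptake and activation. The fatty acid transporter Cd36 had 1621, 1888, 2113, 1831 and 2603 CPM in heart, against 3391, 3774 and 3153 CPM in adipose tissue (-0.77, adjusted p = 0.0117), a call that was lost with heart replicates 4 and 6 alone. The acyl-CoA synthetase Acsl1 had 892, 1082, 1205, 1064 and 1391 CPM in heart, against 4169, 3385 and 1901 CPM in adipose tissue (-1.48, adjusted p = 0.000811), and the transport protein Slc27a1 had 131 ± 29.2 CPM in heart and 465 ± 232 CPM in adipose tissue (-1.83). Cpt1a, the liver-type gate enzyme of mitochondrial import, did not pass (55.8 ± 11.5 CPM in heart and 60.3 ± 23.1 CPM in adipose tissue); its muscle counterpart Cpt1b stood only in the heart table, at 14.98 ± 3.12 CPM, a level that is uncertain because Cpt1b overlaps its neighbour Chkb.

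Of 6 genes of ketone use, 5 were higher in heart. Bdh1, which oxidises beta-hydroxybutyrate, had 179.6, 209, 213, 197 and 179 CPM in heart, against 0.349, 0.4496 and 0.4797 CPM in adipose tissue (8.78, SE 0.21, adjusted p = 6.21e-09), with tight values in both groups. Oxct1, the next enzyme of that path, averaged 1377 ± 167 CPM in heart and 320.1 ± 25.7 CPM in adipose tissue (2.1). In the TCA cycle list, 24 of 26 genes were higher in heart (median 1.95). Idh2, the mitochondrial NADP-dependent isocitrate dehydrogenase, stood out with 2256, 1985, 1924, 1802 and 1776 CPM in heart, against 54.6, 51.8 and 47.1 CPM in adipose tissue (5.25), and Ogdh differed by 2.89. Pcx, pyruvate carboxylase, which feeds carbon into the cycle and into lipid and glycerol synthesis, went far the other way, with 31.2, 39.5, 37.5, 36.4 and 41.6 CPM in heart, against 1476, 1353 and 959 CPM in adipose tissue (-5.08, SE 0.2, adjusted p = 2.52e-08). The pyruvate carrier subunit Mpc1 was also higher in adipose tissue (-0.78), a call that was lost without adipose replicate 3 (the 8 fits that left out 1 library ran from -0.96 to -0.67).

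Nuclear genes of oxidative phosphorylation were higher in heart in 71 of 78 tested members, with a median of 2.23; their summed level was 52594, 30629.8, 38527, 29146 and 33874 CPM in heart, against 9232, 6710.2 and 5642 CPM in adipose tissue. Every heart library was more than 3 times every adipose library. The 7 mitochondrially encoded protein-coding genes measured had a median of 0.56, and only mt-Nd6 passed (1.4, adjusted p = 0.0142). That call was lost without adipose replicate 3 or 5 (1.1 to 1.67 over fits leaving out 1 library), while without adipose replicate 1 the number that passed was 4 of 7. Their summed level was 356264, 232547, 199706, 264247 and 296043 CPM in heart, against 308757, 152403 and 98111 CPM in adipose tissue, and adipose replicate 1 lay above 4 of the 5 heart libraries. mt-Co1, a core subunit of cytochrome c oxidase, had 77513, 60570, 52423, 64344 and 74300 CPM in heart, against 51730, 23791 and 16200 CPM in adipose tissue (1.11, adjusted p = 0.0567), and without adipose replicate 1 its difference was 1.7 (adjusted p = 0.00132). mt-Cytb differed by 0.35 (SE 0.48). Mitochondrially encoded genes took 27.2% ± 4.06 of counts in heart and 19.7% ± 8.65 in adipose tissue (SD, n = 5 and 3; exact permutation test, two-sided p = 0.1429, smallest possible 0.01786). Without adipose replicate 1 the medians were 2.4 for the nuclear genes and 1.2 for the mitochondrial ones. The difference between both lists was not tested. Atp5a1, an ATP synthase subunit, is an example of the nuclear genes, with 4439, 4119.7, 5100.3, 3718 and 4774 CPM in heart, against 757, 628 and 536 CPM in adipose tissue (2.79). Genes of the mitochondrial ribosome had 51 of 75 higher in heart, 2 higher in adipose tissue (Mrps6 at -1.72, and Mrpl20 at -0.59, a call lost on leaving out any library but heart replicate 2 or adipose replicate 5; without heart replicate 2 the number was 7) and a median of 0.92.

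**Figure D3:**
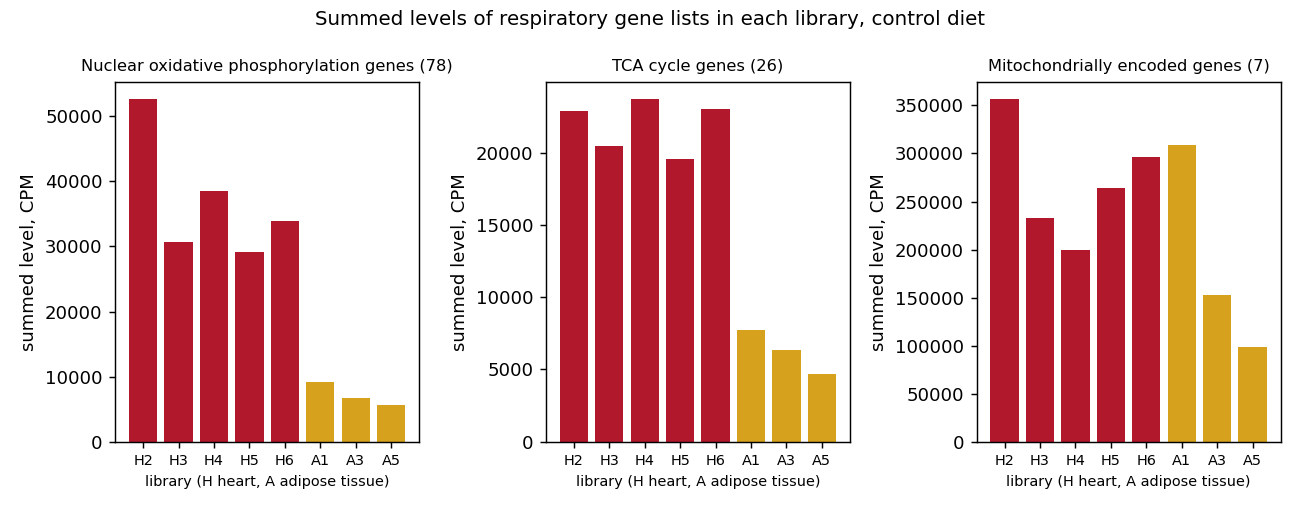
Summed level in each library, in CPM, of nuclear oxidative phosphorylation genes (left), TCA cycle genes (middle) and mitochondrially encoded protein-coding genes (right). Heart libraries are in red and adipose tissue libraries in yellow. The nuclear sums do not overlap between tissues, while the mitochondrially encoded sum of adipose replicate 1 lies within the heart range.

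Among regulators of mitochondrial genes, 3 were examined. Ppargc1a, the coactivator of mitochondrial gene expression, had 108, 175, 225, 139.7 and 237 CPM in heart, against 15.8, 4.27 and 2.43 CPM in adipose tissue (4.62, SE 0.62, adjusted p = 0.000104). The estrogen-related receptors Esrra and Esrrg averaged 113 ± 14.5 and 60.8 ± 18.1 CPM in heart and 10.1 ± 2.27 and 0.703 ± 0.564 CPM in adipose tissue (3.5 and 6.5). Within glycolysis, 11 of 17 tested genes were higher in heart and 0 passed in the other direction (1 without heart replicate 4 or adipose replicate 5), with a median of 0.87. Both hexokinases, Hk1 and Hk2, were higher in heart (2.48 and 2.14), as were the glucose transporters Slc2a4 and Slc2a1 (1.5 and 1.37). Genes of glycogen turnover were higher in heart in 10 of 12 cases (median 1.53), led by Ppp1r3a, a muscle glycogen-targeting subunit of protein phosphatase 1, with 246 ± 99.9 CPM in heart and 0.466 ± 0.5803 CPM in adipose tissue (9.42). The branching enzyme Gbe1 (-1.17) and the liver phosphorylase Pygl were higher in adipose tissue.

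**Figure D4:**
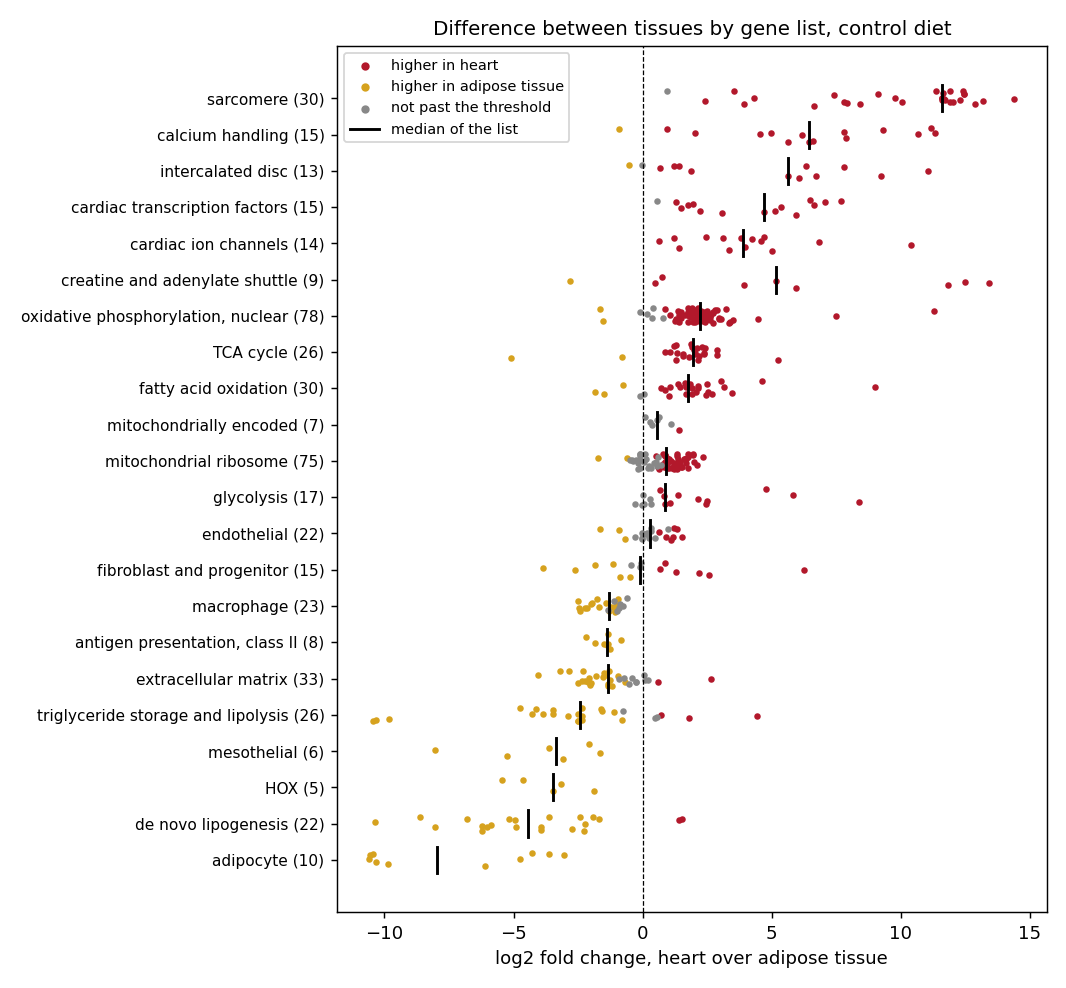
Log2 fold change, heart over adipose tissue, of every tested member of 22 gene lists (number of members in brackets), with black bars at the list medians; red points passed as higher in heart, yellow points as higher in adipose tissue, and grey points did not pass. Medians run from 11.61 for the sarcomere to -7.98 for adipocyte markers.

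Some families of close relatives divided between the tissues. Of 25 families of related genes with at least 2 members tested, 12 had members called in opposite directions, and in 17 the member with the highest level per kilobase of exon differed between tissues. Across the 62 tested members 33 were higher in heart and 19 in adipose tissue. Over all tested genes 30.4% were higher in heart and 30.7% in adipose tissue. The families were picked as known for tissue-specific forms, so these counts do not show how often related genes divide. Fatty acid binding proteins, cytosolic carriers of fatty acids, are an example: Fabp3 had 1385, 636, 863, 795 and 688 CPM in heart, against 5.44, 0.128 and 0.395 CPM in adipose tissue (9.01). Fabp4 had 1094, 395, 547, 413 and 439 CPM in heart, against 20845, 14287 and 11049 CPM in adipose tissue (-4.74), and Fabp5 followed it (-2.36). Per kilobase of exon, Fabp3 reached 1061 CPM in heart and 2.42 CPM in adipose tissue, and Fabp4 129 CPM in heart and 3429 CPM in adipose tissue. The leading member thus differed.

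Acetyl-CoA carboxylases make malonyl-CoA, which serves fatty acid synthesis in the cytosol (Acaca) and restrains fatty acid entry at mitochondria (Acacb). Acacb had 293, 503, 444, 392 and 512 CPM in heart, against 231, 153 and 64.8 CPM in adipose tissue (1.52, adjusted p = 0.00461), and Acaca had 7.23, 5.42, 5.55, 6.496 and 7.31 CPM in heart, against 873, 750.5 and 532 CPM in adipose tissue (-6.81, adjusted p = 1.15e-08). Glycogen phosphorylases split likewise. The muscle form Pygm had 342, 397, 452, 380.1 and 433 CPM in heart, against 1.53, 1.77 and 1.38 CPM in adipose tissue (8.0), the brain form Pygb differed by 2.61, and the liver form Pygl had 4.599, 5.12, 4.82, 5.02 and 4.74 CPM in heart, against 321, 373 and 235 CPM in adipose tissue (-5.99). All 3 sets of values were tight, and heart and adipose libraries did not overlap in any of them.

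Tissue forms of cytochrome c oxidase subunits split in 2 of 3 pairs. Cox6a2 had 2758, 935, 1003, 1109 and 809.6 CPM in heart, against 1.81, 0.0642 and 0.198 CPM in adipose tissue (11.29), while Cox6a1 averaged 56.2 ± 29.3 CPM in heart and 176 ± 68.1 CPM in adipose tissue (-1.65). Cox8b was higher in heart (4.48) and Cox8a higher in adipose tissue (-1.53), the only 2 nuclear oxidative phosphorylation genes higher in adipose tissue being Cox6a1 and Cox8a. In the third pair, Cox7a1 and Cox7a2 were both higher in heart (7.47 and 1.75). Perilipins, coats of the lipid droplet, ranged from Plin5 (4.44), the form of oxidative tissues, to Plin4 (-2.89) and Plin1 (-10.34). Among the lipid-sensing receptors, Ppara was higher in heart with 10.2, 46.8, 40.4, 42.8 and 52.6 CPM in heart, against 10.7, 4.66 and 3.33 CPM in adipose tissue (2.67), where heart replicate 2 lay within the adipose range. Pparg, the regulator of adipocyte differentiation, had 23.1, 17.4, 12.5, 16.3 and 18.7 CPM in heart, against 279.7, 221 and 146 CPM in adipose tissue (-3.61), and Ppard did not pass (0.039).

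**Figure D5:**
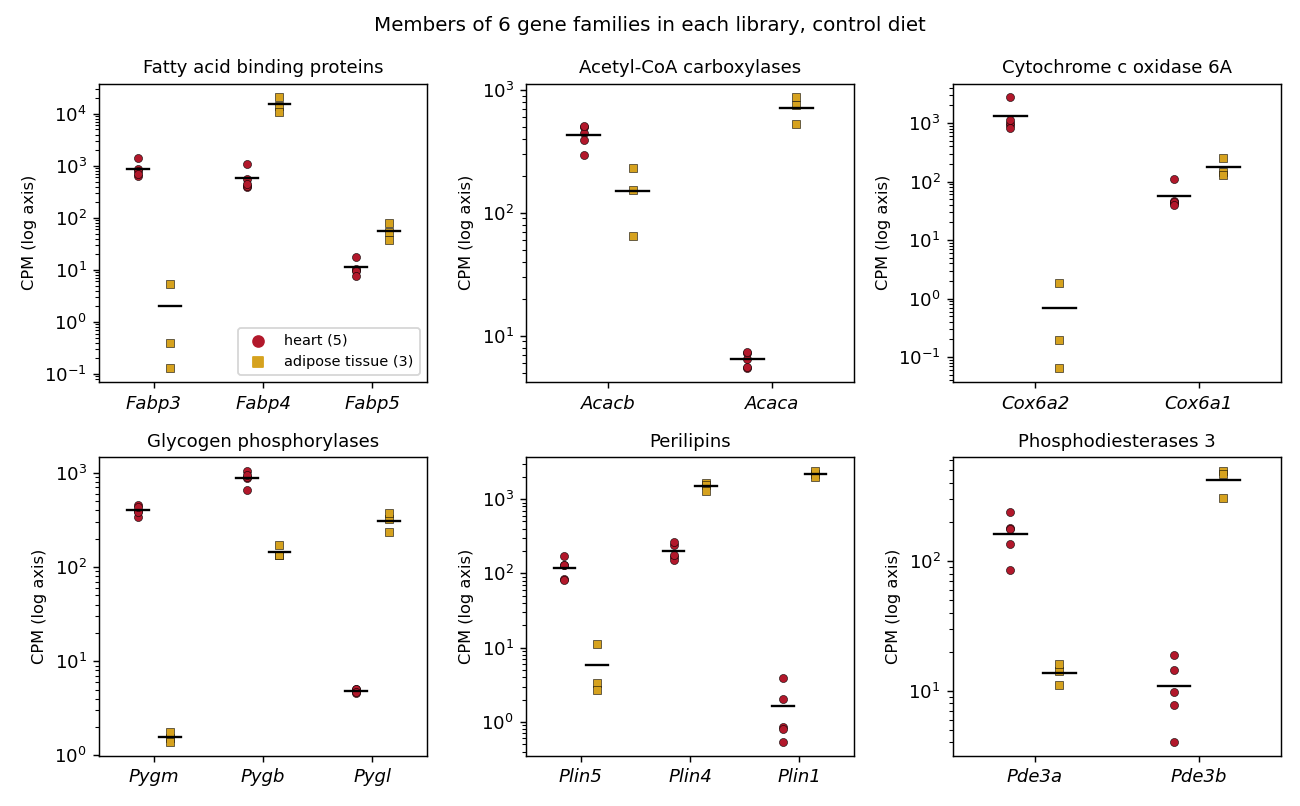
CPM on log axes of members of 6 gene families in each heart library (circles, left) and each adipose tissue library (squares, right), with bars at the means. In each panel at least 1 member is higher in heart and at least 1 is higher in adipose tissue.

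Of 13 tested genes of adrenergic and cyclic nucleotide signalling, 6 were higher in heart and 6 in adipose tissue (median -0.33, from -0.51 without adipose replicate 3 to -0.13 without adipose replicate 1). Pde3a, a cyclic nucleotide phosphodiesterase of heart and vessels, averaged 163 ± 56.6 CPM in heart and 13.8 ± 2.49 CPM in adipose tissue (3.56), and Pde3b, through which insulin restrains lipolysis, 10.95 ± 5.79 CPM in heart and 422 ± 102 CPM in adipose tissue (-5.26). The beta-adrenergic receptor Adrb1 had 10.97, 27.2, 15.4, 20.8 and 16.7 CPM in heart, against 1.604, 0.996 and 1.02 CPM in adipose tissue (3.97). Adrb3, the receptor of adipocyte lipolysis, stood only in the adipose table at 563, 484 and 242 CPM. Prkar2b, a regulatory subunit of protein kinase A, had 2.59, 1.91, 1.402, 3.02 and 3.94 CPM in heart, against 697, 677 and 533 CPM in adipose tissue (-7.95), and the natriuretic peptide clearance receptor Npr3, from the list of adipocyte regulators, differed by -4.31. Among calcium pumps, Atp2a3 was higher in adipose tissue (-2.03), opposite to Atp2a2. Caveolae genes Cav1, Cav2, Cavin1, Cavin2 and Cavin3 were higher in adipose tissue (-2.87, -2.32, -1.88, -1.84 and -3.55), and the muscle member Cavin4 was higher in heart (8.58).

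In some families 1 member passed and another did not. Ldhb, the lactate dehydrogenase subunit of oxidative muscle, had 1016, 694, 849.9, 564 and 753 CPM in heart, against 29.2, 34.7 and 21.3 CPM in adipose tissue (4.77), and Ldha averaged 453 ± 69.04 CPM in heart and 436 ± 56.9 CPM in adipose tissue and did not pass. Eno3 differed by 8.38 and Pfkm by 5.82; their relatives Eno1 and Pfkp did not pass (-0.31 and -0.033). Of the forms of translation elongation factor 1 alpha, Eef1a1 was higher in adipose tissue (-1.82), and Eef1a2, the form of muscle and neurons, had 1949.8, 1524, 1766, 1545 and 1485 CPM in heart, against 1.67, 1.25 and 0.621 CPM in adipose tissue (10.51). Levels of genes with near-identical copies elsewhere in the genome, such as Eef1a1, Eno1 and ribosomal protein genes, are uncertain, because counting can divide or drop their reads.

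Genes of de novo lipogenesis were higher in adipose tissue in 20 of 22 cases, with a median of -4.43, and 18 of the 20 differed by more than 4-fold. The list summed to 959.9, 1129, 1076, 1152 and 1190.3 CPM in heart, against 105287, 101997 and 76811 CPM in adipose tissue, so every adipose library was more than 60 times every heart library. Most of these counts came from Scd1, the delta-9 desaturase (chr19:44394455-44407879), with 34.6, 31.9, 25.97, 131 and 61.6 CPM in heart, against 84635, 77982 and 62763 CPM in adipose tissue (-10.36, SE 0.71, adjusted p = 8.32e-07). Heart replicates 5 and 6 were the highest heart libraries, as for Adipoq, and without replicate 5 the Scd1 difference was -10.93. Fasn, fatty acid synthase, had 20.3, 32.2, 23.96, 56.5 and 35.1 CPM in heart, against 9018, 10801 and 6495 CPM in adipose tissue (-8.03, SE 0.42, adjusted p = 1.43e-07). Elovl6, which lengthens palmitate, had 1.102, 1.43, 1.28, 3.62 and 2.68 CPM in heart, against 1007, 974 and 445 CPM in adipose tissue (-8.63). Acly, Me1 and Thrsp, which supply acetyl-CoA, supply NADPH and regulate lipogenesis, differed by -4.93, -3.61 and -5.87. Srebf1, the gene of a lipogenic transcription factor, differed less (-2.23). The 2 exceptions were Acacb, described above, and Mid1ip1, a binding partner of acetyl-CoA carboxylase, with 95.3 ± 9.85 CPM in heart and 35.95 ± 4.97 CPM in adipose tissue (1.41).

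Genes of triglyceride storage and lipolysis were higher in adipose tissue in 20 of 26 tested members (median -2.44), and 3 were higher in heart, the droplet coats Plin5 and Plin3 and the droplet factor Fitm2 (4.44, 1.81 and 0.72); the Fitm2 call was lost without adipose replicate 5 (0.54). Cidec, which enlarges lipid droplets, had 0.623, 0.715, 0.792, 4.81 and 1.999 CPM in heart, against 2592, 2746 and 2307 CPM in adipose tissue (-10.44), and Plin1 had 0.862, 0.536, 0.792, 3.97 and 2.06 CPM in heart, against 2151, 2394 and 1958 CPM in adipose tissue (-10.34). Pck1, which makes glycerol phosphate precursors in fat, differed by -9.83. The lipases Lipe and Pnpla2 were present in both tissues, with 69.7 ± 20.5 and 409.8 ± 136 CPM in heart and 1375 ± 305 and 2345 ± 518 CPM in adipose tissue (-4.3 and -2.52). Gpd1 averaged 53.6 ± 3.57 CPM in heart and 932 ± 402 CPM in adipose tissue (-4.12), whereas Gpd1l did not pass (0.16). Lipoprotein lipase, Lpl, was abundant in both tissues, with 10321, 7299, 8936, 6650.3 and 9089.6 CPM in heart, against 14673, 18224 and 10769 CPM in adipose tissue. Its call (-0.78, adjusted p = 0.0377) was lost when heart replicate 3, 4, 5 or 6 or adipose replicate 3 was left out (from -0.98 to -0.61).

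Adipokine genes, for hormones and proteins that fat secretes, were higher in adipose tissue in 9 of 12 tested members (median -3.62). Adipoq (chr16:23146536-23158028) had 0.623, 0.596, 0.792, 4.04 and 1.66 CPM in heart, against 3069, 2504 and 1695 CPM in adipose tissue (-10.58, SE 0.69, adjusted p = 5.85e-07). Resistin, Retn, had 0.192, 0.268, 0.6096, 1.76 and 0.799 CPM in heart, against 1418, 1094 and 884 CPM in adipose tissue (-10.57), and the complement factor adipsin, Cfd, differed by -9.87. Retinol-binding protein 4, Rbp4, had 0.2395, 0.417, 0.6096, 0.913 and 0.457 CPM in heart, against 1059, 849 and 633 CPM in adipose tissue (-10.62). Apln and Nampt were the 2 members higher in heart (1.45 and 0.85), and the Apln call was lost with heart replicates 4 and 6 alone. Leptin, Lep, stood only in the adipose table, with 253, 605 and 615 CPM. Regulators of adipocytes were higher in adipose tissue in 11 of 17 tested genes and higher in heart in 3, Slc2a4, Cebpb and the insulin receptor Insr (1.5, 0.77 and 0.74). The Insr and Cebpb calls were lost without adipose replicate 5, and that of Cebpb also without adipose replicate 3 (lowest values 0.65 for Cebpb and 0.55 for Insr). Cebpa, a differentiation factor, had 8.72, 6.61, 7.19, 10.4 and 6.57 CPM in heart, against 555, 476 and 366 CPM in adipose tissue (-5.88), and Trarg1, a partner of insulin-regulated glucose transport, differed by -6.09. Car3, a carbonic anhydrase, averaged 10.3 ± 7.999 CPM in heart and 25169 ± 4925 CPM in adipose tissue (-11.25), and Cyp2e1, a cytochrome P450 best known from liver, differed by -10.35. Car5b, a mitochondrial carbonic anhydrase, differed by -9.47. Alb, the albumin gene of liver, had the most negative fold change of all genes (-11.36), with 4 counts in all heart libraries together and 59.6, 192 and 58.6 CPM in adipose tissue, highest in replicate 3. That library was also highest in the liver gene Apoa1 (0.907, 16.2 and 0.3104 CPM, adipose table only), and the part of other organs in the adipose values was not tested.

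Genes of heat production gave no single direction. Of 7 thermogenic genes tested, 4 were higher in heart: the coactivator Ppargc1a, the oxidase subunits Cox7a1 and Cox8b, all described above, and the brown fat regulator Prdm16, with 18.5 ± 2.99 CPM in heart and 6.42 ± 1.96 CPM in adipose tissue (1.54). The factor Ebf2 was higher in adipose tissue (-1.62). Cidea, a droplet protein of brown fat, had 32.002, 14.9, 21.2, 21.3 and 17.7 CPM in heart, against 43.5, 2.89 and 0.818 CPM in adipose tissue (adjusted p = 0.659). Dio2, the deiodinase that makes active thyroid hormone, had 0.479, 2.68, 1.58, 9.31 and 3.03 CPM in heart, against 19.3, 1.93 and 1.44 CPM in adipose tissue (adjusted p = 0.344). In both genes adipose replicate 1 stood above the other adipose libraries. Ucp1, the uncoupling protein that defines brown fat, stood only in the adipose table, with 93.9, 0.385 and 0.0564 CPM, so that 1 library carried nearly all of it. Without that library the thermogenic median moved to 3.52, against 1.54 with it, the Cidea difference was 3.52 (adjusted p = 0.000277) and the Dio2 difference turned to 1.04. The part of that library's brown fat genes in the other metabolic values was not tested.

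Genes of the extracellular matrix were higher in adipose tissue in 22 of 33 tested members, with a median of -1.34. Col3a1, a fibrillar collagen, had 172, 169.6, 138, 189 and 144 CPM in heart, against 558, 833 and 996 CPM in adipose tissue (-2.29, SE 0.2, adjusted p = 5.22e-06). Fibronectin, Fn1, averaged 42.7 ± 13.7 CPM in heart and 397 ± 392 CPM in adipose tissue (-3.22, and -2.06 without adipose replicate 5), and the cross-linking enzyme Lox differed by -4.04. The 2 members higher in heart were Col8a1, a network collagen (2.67), and the matrix protease Mmp2 (0.61), whose call was lost on leaving out any library but adipose replicate 5 (from 0.35 to 0.93). Markers of fibroblasts and their progenitors went both ways, with 6 of 15 higher in heart and 6 higher in adipose tissue, beside 30.4% and 30.7% of all tested genes. Wif1, a secreted Wnt inhibitor, had 8.62, 6.04, 4.51, 5.58 and 16.96 CPM in heart, against 0.279, 0.0964 and 0.0282 CPM in adipose tissue (6.26), and the fibroblast genes Meox1 and Mfap4 differed by 2.56 and 2.17. Dpp4, which marks fibroblast progenitors of fat, had 4.22, 2.95, 2.56, 3.51 and 4.51 CPM in heart, against 30.1, 42.5 and 81.9 CPM in adipose tissue (-3.86).

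Markers of mesothelium, the cell layer that covers internal organs and fat depots of the body cavities, were higher in adipose tissue in all 6 tested cases (median -3.35). A further 10 stood only in the adipose table, as did 2539 genes in all. Upk3b, a uroplakin, had 0.383, 0.238, 1.097, 0.0702 and 0.0571 CPM in heart, against 60.8, 68.4 and 133 CPM in adipose tissue (-8.04, SE 0.56, adjusted p = 9.1e-07). Rspo1, a Wnt agonist, had 1.82, 0.476, 0.792, 0.632 and 1.37 CPM in heart, against 37.5, 24.4 and 50.01 CPM in adipose tissue (-5.24), and the transcription factor Wt1 differed by -2.06. Their part in the matrix and HOX values was not tested.

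In the 6 immune lists examined, 0 members passed as higher in heart. Without heart replicate 2, 1 complement gene did. Of 23 macrophage markers, 16 were higher in adipose tissue (median -1.3), and their summed level was 543, 336, 479, 481 and 516 CPM in heart, against 439, 968 and 2104 CPM in adipose tissue. Adipose replicate 1 lay within the heart range; without it all 23 passed, with a median of -1.68, and without adipose replicate 5 the number was 9, with a median of -0.67. Cd68, a lysosomal protein of macrophages, had 10.7, 6.82, 8.59, 9.69 and 9.08 CPM in heart, against 14.9, 37.9 and 91.2 CPM in adipose tissue (-2.43, adjusted p = 0.000687; -1.59 without adipose replicate 5). Trem2, a lipid-sensing receptor of macrophages in fat, had 2.395, 1.399, 0.975, 1.65 and 0.914 CPM in heart, against 8.998, 3.501 and 12.98 CPM in adipose tissue (-2.52). Mrc1, the mannose receptor, differed by -1.71, a call lost without adipose replicate 5 (from -2.17 to -0.96 on leaving out 1 library), and C1qa did not pass (-0.77).

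All 8 tested genes of class II antigen presentation were higher in adipose tissue (median -1.37), among them the invariant chain Cd74, with 207, 83.7, 181, 169 and 101 CPM in heart, against 221, 450.4 and 579.7 CPM in adipose tissue (-1.49, adjusted p = 0.00387). Here too adipose replicate 1 was the lowest of the adipose libraries, just above the highest heart library. All 3 B and plasma cell genes and all 3 T and NK cell genes tested were higher in adipose tissue. A further 11 and 15 stood only in the adipose table, as did 2539 genes in all. Igkc, the immunoglobulin kappa constant gene, had 2.92, 1.97, 2.26, 5.93 and 0.971 CPM in heart, against 544, 652 and 1743 CPM in adipose tissue (-8.42), Ighm differed by -6.72, and the T cell receptor gene Trac had 2.204, 0.953, 1.22, 0.562 and 0.857 CPM in heart, against 16.3, 15.03 and 7.76 CPM in adipose tissue (-3.5). Complement genes were higher in adipose tissue in 8 of 12 cases.

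Of 22 endothelial markers, 7 were higher in heart and 3 higher in adipose tissue, with a median of 0.29 (0.078 with library totals as the scale). Over all tested genes 30.4% were higher in heart and 30.7% in adipose tissue, so the number higher in heart does not set these markers apart. Vwf, von Willebrand factor, averaged 83.2 ± 17.3 CPM in heart and 28.8 ± 8.51 CPM in adipose tissue (1.53), and the VEGF receptor Kdr 240.4 ± 39.7 CPM in heart and 113 ± 31.4 CPM in adipose tissue (1.09). The adhesion genes Pecam1 and Cdh5 did not pass (0.31 and -0.028). The 3 higher in adipose tissue were Car4, a capillary carbonic anhydrase (-1.64), the junction gene Cldn5 (-0.91) and the arterial factor Sox17 (-0.7). The Sox17 call was lost without adipose replicate 1 or 3 and that of Cldn5 without any library but heart replicate 2 or 3 (Cldn5 from -1.14 to -0.74). All 4 tested genes of the lymphatic endothelium list were higher in heart. Lyve1, a lymphatic marker that macrophages share, stood in the macrophage list instead, whose members all had negative values (from -2.52 to -0.62). Prox1, the master factor of lymphatic identity, which cardiomyocytes also express, had 38.3, 112, 68.1, 81.3 and 80.7 CPM in heart, against 0.418, 0.257 and 0.169 CPM in adipose tissue (8.21). Mmrn1 had 13.5, 3.75, 9.69, 10.9 and 19.4 CPM in heart, against 0.1395, 0.0964 and 0.141 CPM in adipose tissue (6.47), and Reln and Flt4 differed by 2.59 and 1.26. Of 12 smooth muscle and pericyte markers, 4 were higher in heart (over all tested genes 30.4%), 2 higher in adipose tissue (30.7%) and 6 did not pass (median -0.13). The median was -0.31 with library totals as the scale, and members ran from -2.09 to 3.1. Abcc9 and Kcnj8, subunits of one potassium channel, were among those higher in heart (3.1 and 2.5). Smooth muscle actin, Acta2, did not pass (255 ± 217 CPM in heart and 119 ± 25.4 CPM in adipose tissue). Of 7 erythroid genes 5 were higher in heart, and the haemoglobin gene Hbb-bs had 979.6, 302, 315, 332 and 305 CPM in heart, against 56.6, 124 and 153 CPM in adipose tissue (2.01).

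Clock genes, whose level depends on the hour of sampling, were higher in heart in 11 of 19 cases (7 without adipose replicate 1) and higher in adipose tissue in 5. Ciart was in the first group, with 6.18 ± 1.62 CPM in heart and 2.17 ± 0.846 CPM in adipose tissue (1.5), and the repressor Nr1d1 was higher in adipose tissue (-1.3), as were Per1, Per2, Per3 and Rora (-0.65, -0.47, -0.76 and -0.49). Of these, the Per2 call was lost without adipose replicate 3 and the Rora call without heart replicate 3, 4 or 5 or adipose replicate 3 (from -0.6 to -0.36). Hours of sampling are not given in the labels. Among antioxidant genes, 5 of 18 were higher in heart and 8 in adipose tissue, beside 30.4% and 30.7% of all tested genes. Nqo1, a quinone reductase, had 61.7, 57.9, 67.2, 64.5 and 46.8 CPM in heart, against 2.93, 2.28 and 2.14 CPM in adipose tissue (4.63), and mitochondrial Sod2 differed by 1.88. Catalase, Cat, glutathione peroxidase 1, Gpx1, and extracellular Sod3 were higher in adipose tissue (-2.86, -3.11 and -3.66). Of 14 genes often used to normalise expression, 4 were higher in heart and 8 in adipose tissue. Actb had 682, 386, 338, 347 and 335 CPM in heart, against 1544, 1429.5 and 1629 CPM in adipose tissue (-1.88), and B2m, a subunit of class I antigen presentation, differed by -3.76. Cytosolic ribosomal protein genes had a median of 0.34, with 21 of 65 higher in heart (over all tested genes 30.4%) and 7 in adipose tissue (30.7%), all subject to the uncertainty of near-identical copies. Their number higher in heart was 13 without adipose replicate 1 and 11 without adipose replicate 3, and their number higher in adipose tissue was 12 without heart replicate 2. The median was 0.089 with library totals as the scale, and from 0.2 (without heart replicate 4) to 0.47 (without heart replicate 5) on leaving out 1 library.

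Whether the tissue difference itself differed between diets was tested as an interaction over 17 libraries, adding 5 heart and 4 adipose libraries of mice on HFCD, with CPM scaled over these libraries. At an adjusted p below 0.05, 2705 of 12606 genes (21.5%) passed, of which 1325 were shifted toward heart on HFCD and 1380 toward adipose tissue. Of the lipogenic genes, 19 of 22 shifted toward heart and 0 the other way, so that the list's median on HFCD was -2.72, against -4.43 on the control diet. For Fasn, the heart libraries on HFCD had 20.8, 19.7, 13.7, 18.5 and 26.9 CPM, against 19.5, 31.2, 23.2, 55.2 and 33.6 CPM on the control diet. The adipose libraries had 764, 880.2, 955 and 716 CPM on HFCD, against 8815, 10524 and 6379 CPM on the control diet. The tissue difference in Fasn was -5.37 on HFCD, and the change between diets was 2.67 (SE 0.39, adjusted p = 0.000223). Acaca, Elovl6 and Acly shifted by 3.75, 5.14 and 2.59. In adipose tissue Elovl6 had 15.8, 8.75, 16.5 and 12.9 CPM on HFCD, against 984, 949 and 437 CPM on the control diet.

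Mitochondrially encoded protein-coding genes shifted toward heart in 7 of 7 cases. mt-Co1 had 87486, 115770, 225690, 101910 and 176880 CPM in heart on HFCD, against 74455, 58722, 50820, 62910 and 71249 CPM on the control diet. In adipose tissue it had 3068, 3044, 6375 and 7008 CPM on HFCD, against 50563, 23180 and 15909 CPM on the control diet (interaction 3.77, SE 0.58, adjusted p = 0.000331). mt-Cytb shifted by 4.79. The share of counts from all mitochondrially encoded genes ran from 36.4% to 71.5% in heart on HFCD and from 2.17% to 6.08% in adipose tissue on HFCD. On the control diet it ran from 21.8% to 32.6% in heart and from 12.6% to 29.3% in adipose tissue. The part of library quality in this share was not tested. The nuclear oxidative phosphorylation genes passed in 6 of 78 cases, 5 toward heart and 1 toward adipose tissue. That number toward heart was 21 without heart control replicate 2 (median 0.39), 11 without adipose control replicate 5, 0 without adipose control replicate 1 (median -0.11) and 1 to 4 without any other library. Macrophage genes shifted toward adipose tissue in 14 of 23 cases and class II genes in 7 of 8. Cd74 had 116, 79.7, 67.8, 108 and 115 CPM in heart on HFCD, against 199, 81.1, 175, 165 and 97.1 CPM on the control diet. In adipose tissue Cd74 had 715, 1134, 1021 and 1136 CPM on HFCD, against 216, 439 and 569 CPM on the control diet (interaction -1.86, adjusted p = 0.00674). The liver phosphorylase Pygl, the family member of adipose tissue, shifted by 2.13. Without adipose control replicate 3 the count over all genes was 1763 and without adipose control replicate 1 it was 1835; the lipogenic count was then 16 and 15, the macrophage count 9 and 10, and the mitochondrially encoded count 7 in both.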

How the data were processed

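Total RNA was sequenced after ribosomal depletion (KAPA RNA Hyper with RiboErase), per the labels' protocols. The authors deposited raw counts per gene for each tissue in separate tables. Reads were aligned to mm10 with STAR 2.5.3, per the submitters' processing notes. The counting program, annotation and strand setting are not given in the sources used here, so reads of overlapping genes on opposite strands may not be told apart. The deposited log2 tables were used only for gene symbols and to find how the heart libraries had been adjusted by the authors.

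Genes present in both tables were joined by Ensembl identifier, filtered with filterByExpr, scaled by TMM and tested with the robust quasi-likelihood test of edgeR 4.0.16 in R 4.3.3. Benjamini-Hochberg adjustment ran over all 12603 genes. The standard error is the absolute log2 fold change divided by the square root of F. CPM of genes in 1 table use the same totals and factors. In simulated counts, 100 genes above a minimum mean count were changed 2-fold and 100 were changed 4-fold, up and down in equal number. The test recovered 58 and 99 of them, with 8 false calls among the unchanged genes (12597 genes tested in all). In the real data 61% of genes were called, so these rates need not carry over. DESeq2 1.42.0 and limma 3.58.1 (voom) served as alternatives, beside other scalings, filters, covariates and libraries left out. The number of libraries, 5 and 3, limits the precision.

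Gene coordinates are GRCm38 (GENCODE M21). Genes named were the 12 largest differences each way at 20 CPM or more, leading members of each list and members of the families; others, such as the exceptions within lists, were chosen after their values were seen. The genes, lists and families were chosen with earlier results of these data known. Labels do not say which libraries came from the same mouse, so the tissues were compared as unpaired, and p-values measure the spread between these libraries. A total of 7 labelled samples of the series were not analysed here, and some genes that the rule would name are not reported here.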

Additional observations from a re-analysis of the deposited data

Results flagged for a closer look

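A heart library far from the other 4 was found in 26 of 208 genes examined (12.5%), and in 1395 of all 12603 tested genes (11.1%), where chance flags about 1 group in 20. Heart replicate 2 was that library in 23 of the 26, the highest in 19 and the lowest in 4. In contractile genes it stood at 9873 CPM for Tnni3 (next highest 4587), 2626 for Tcap (next 1205) and 1514 for Myoz2 (next 1029.7). In genes of the respiratory chain it stood at 2758 CPM for Cox6a2, 108 for Cox6a1, 861 for Cox7a1, 636 for Cox8b, 134 for Cox8a and 6843 for Slc25a4. In genes of lipid handling and caveolae it stood at 1094 CPM for Fabp4, 17.9 for Fabp5, 648 for Pnpla2, 432 for Cav1 and 401 for Cavin1. It was also highest in Hbb-bs (979.6 CPM), Gpx1 (93.7 CPM), Gamt (5.27 CPM), Flt4 (43.98 CPM) and Actb (682 CPM). It was lowest in Dsp (756 CPM, next lowest 1526), Tead1 (98.97 CPM, next 243), Ppara (10.2 CPM, next 40.4) and Gpd1l (56.4 CPM, next 77.6). Without it, 4105 genes were higher in heart and 4252 higher in adipose tissue. Other heart libraries stood apart in Dio2 (replicate 5 highest, 9.31 CPM), Hoxa3 (replicate 4 lowest, 0.427 CPM) and Eno1 (replicate 4 highest, 31.9 CPM).

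The difference between heart and adipose tissue itself differed by diet in 8 genes described above, by the interaction test of edgeR with adjustment over all genes. On the log2 scale the difference on HFCD minus that on the control diet was 2.67 for Fasn, 3.75 for Acaca, 5.14 for Elovl6, 2.59 for Acly, 3.77 for mt-Co1, 4.79 for mt-Cytb, -1.86 for Cd74 and 2.13 for Pygl. In Fasn, Acaca, Elovl6, Acly, mt-Co1, mt-Cytb and Pygl the 4 adipose libraries on HFCD lay below the 3 on the control diet, and in Cd74 they lay above.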

How the results depend on the processing

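No paired analysis was possible because the replicate numbers follow accession order and the labels do not tie libraries to mice. The counts of called genes, 3826 higher in heart and 3863 in adipose tissue, stayed within 1.5 times under every scaling, filter, tool and library set tried, except the test against a 2-fold difference, which left 1520 and 1388. With 1 library left out they ran from 3253 to 4105 and from 3476 to 4252, and no called gene was called with the opposite sign in any setting. Of 208 genes under 22 alternatives each, 156 kept their direction and call in all. With heart replicates 2, 3 and 5 alone, Mpc1, mt-Nd6, Lpl, Insr and Fitm2 were among those that no longer passed, and with replicates 4 and 6 alone Acta1, Cd36, Lpl, Apln and Mrc1 were. Sign changes touched only genes that had not passed. With library totals as the scale these were Ppard (-0.19), Ldha (-0.15), Gpd1l (-0.049) and Tbx3 (-0.025), and with upper-quartile scaling Ppard (-0.0099). With heart replicates 4 and 6 alone they were Gja5 (0.022), Ppard (-0.074), Cpt1a (0.026) and Tbx3 (-0.074), and with replicates 2, 3 and 5 alone Ldha (-0.021) and Cdh5 (0.074). On leaving out 1 library, values ran from -0.16 to 0.015 for Gja5, -0.018 to 0.074 for Ppard, -0.38 to 0.17 for Cpt1a, -0.15 to 0.052 for Pfkp, -0.030 to 0.15 for Ldha, -0.11 to 3.52 for Cidea, -1.9 to 1.04 for Dio2 and -0.14 to 0.034 for Cdh5. The cause was not tested. The interaction count of 2705 ran from 1763 (without adipose control replicate 3) to 3039 with 1 library left out, and was 3270 with DESeq2, 2608 with voom and 2696 with mitochondrially encoded genes left out of totals, an alternative chosen after seeing the data. The difference in mitochondrially encoded share was 7.56 percentage points over the whole tables and 7.59 over the joined genes. Genes with under 4 counts in a tissue, such as Csrp3 in adipose tissue, have folds whose size is imprecise through counting error. For Csrp3 the 95% counting interval of the ratio ran from 8410 to 119182.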
